A study of Homo sapiens with 15 samples.

Results

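The genes described here are TP63, which encodes the transcription factor p63, and 9 keratins used to tell basal from luminal mammary epithelial cells. They were chosen by name: TP63, the basal keratins KRT5, KRT6A, KRT14, KRT15 and KRT17, and the luminal keratins KRT7, KRT8, KRT18 and KRT19. These are 10 of the 60721 genes in the deposited tables. RNA was sequenced from MCF-10A, an established non-tumorigenic human mammary epithelial line, which was grown without any treatment. The 5 genotypes have 3 libraries each, labelled as biological replicates: unmodified parental cells, an empty vector control, and 3 lines with NF1 mutations that were made with guide RNA 1, guide RNA 2, or guides 1 and 2 together. The parental and empty vector cells carry no NF1 edit. All cells were kept in the same medium, with 10% horse serum, 20 ng/mL EGF, 0.5 ug/mL hydrocortisone, 100 ng/mL cholera toxin and 10 ug/mL insulin. The sources used here do not say whether an edited line was 1 clone or a pool of cells, nor whether replicates were separately derived cultures. The p-values below therefore measure the spread between these libraries.

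The mammary epithelium has an inner layer of luminal cells and an outer basal, or myoepithelial, layer. Keratins are intermediate filament proteins that assemble as pairs of a type I and a type II chain; KRT5 pairs with KRT14 in basal cells, and KRT8 pairs with KRT18 in luminal cells. p63 belongs to the p53 family and is needed to establish and maintain the basal layer of stratified and glandular epithelia, where it binds and activates basal keratin and adhesion genes. MCF-10A cells in culture are known to carry both basal and luminal keratins. NF1 encodes neurofibromin, which lowers RAS activity.

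In GRCh38 with the GENCODE 29 annotation, TP63 lies on the plus strand at chr3:189631416-189897279. Its 14 annotated transcripts begin at 2 sites whose first starts are 158244 bases apart. The 6 transcripts from the upstream start include 5 coding ones, which encode TA forms with the full transactivation domain, and the 8 from the internal start include 7 coding ones, which encode the ΔN forms typical of basal epithelium. The first 45 coding bases of 1 transcript of each kind are shown because they are where the forms differ, with the start codon in capitals.
TP63-201, upstream start: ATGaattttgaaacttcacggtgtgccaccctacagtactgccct
TP63-203, internal start: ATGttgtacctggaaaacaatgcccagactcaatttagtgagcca
The deposited counts are per gene, so a TP63 value below is the sum over these forms and cannot be divided between them.

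The keratins lie in 2 clusters. The type II genes KRT7 (chr12:52232520-52252186, plus strand), KRT6A (chr12:52487174-52493257, minus), KRT5 (chr12:52514575-52520687, minus) and KRT8 (chr12:52897187-52949954, minus) are on chromosome 12 beside the type I gene KRT18 (chr12:52948871-52952901, plus). The other type I genes, KRT15 (chr17:41513743-41522529), KRT19 (chr17:41523617-41528308), KRT14 (chr17:41582279-41586921) and KRT17 (chr17:41619441-41624842), are on the minus strand of chromosome 17. Several share long identical stretches with a relative, which bears on how reads are assigned. The coding sequences of KRT14 and KRT17 were 84.7% identical over their alignment, with a longest shared run of 59 bases at coding positions 853 to 911 of KRT14, shown here because both genes are followed below.
KRT14 and KRT17, shared run: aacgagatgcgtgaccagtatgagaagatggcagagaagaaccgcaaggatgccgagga
KRT6A was closer still to its copies KRT6B (97.5%) and KRT6C (97.9%), and KRT14 to KRT16 (88.6%). KRT5 and KRT6A were 83.1% identical, and KRT18 and KRT19 62.6%. Reads that fit several of these genes may have been split or dropped in counting. KRT8 and KRT18 share 525 exon bases on opposite strands, and whether counting used strand is not given in the sources used here. Counts of 51 KRT8 pseudogenes came to between 3.18% and 6.20% of the KRT8 count in a library, and counts of 67 KRT18 pseudogenes to between 0.451% and 0.713% of the KRT18 count.

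RefSeq promoter windows (GRCh38.p14) were matched for 3 of the 10 genes, TP63, KRT5 and KRT8. The 250 bases before each start were searched on both strands for the p53-family half-site, the decamer that p63 binds in pairs, which 5.57% of 35116 promoter windows hold. The KRT5 window held 1 match, whose first base lay 97 bases before the start. It lies within the longer stretch printed below, which is chr12:52520472-52520501 on the minus strand. The window of KRT8, at an alternative start of that gene, also held 1, whose first base lay 136 bases before the start. Its printed stretch is chr12:52926586-52926615 on the minus strand. They are shown with the match in capitals because 1 belongs to a keratin that followed TP63 across libraries and 1 to a keratin that did not.
KRT5: gctgccccccAGGCATGCCCagcccactta
KRT8: aggggagctcAGACATGCCCacagcaagtg
The TP63 window, at its upstream start, held none. These are matches of letters only, and binding was not measured.

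Library totals ranged from 46129559 to 78976917 counts, so that 3 counts, taken as the floor of detection, correspond to between 0.038 and 0.065 CPM, the count scaled to a common library total; these floors cover counting error only. NF1 RNA stood between 115 and 159 CPM in the 6 unedited libraries and between 26.0 and 51.3 CPM in the 9 edited ones, so every library followed its label as edited or unedited. It cannot tell guide 2 libraries (27.0 to 31.4 CPM) from those of guides 1 and 2 (26.0 to 29.4 CPM). A pair of libraries stood apart from their own genotype in the genes described here. Guide 2 replicate 2 had high TP63 and basal keratins where the other 2 guide 2 libraries were low, and its NF1 level, 31.4 CPM, was that of an edited line. Parental replicate 2 had low TP63 and basal keratins other than KRT15 where the other parental libraries were high, and its NF1 level was 141 CPM. The tests below are given with and without guide 2 replicate 2. That library was singled out by its values in these same genes. The p-values without it therefore come after a choice made on the outcome and are descriptive. Without parental replicate 2, the edited against unedited comparison called 0 of the genes described here (1.21% of all genes).

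TP63 had the widest range of the 9 genes that could be tested. It stood at 37.4, 0.815 and 19.9 CPM in parental replicates 1, 2 and 3, and at 43.1, 41.4 and 68.0 CPM in the empty vector replicates. In the guide 1 line it was at 0.153, 0.203 and 0.142 CPM, from 8, 16 and 9 counts. All 3 guide 1 libraries were thus far below all 6 unedited libraries, parental replicate 2 included. In the guide 2 line it was at 0.0542 and 0.0723 CPM in replicates 1 and 3, from 3 and 5 counts, and at 75.8 CPM in replicate 2, from 4183 counts. That ratio of replicate 2 to the other 2 together was 1180 (exact 95% interval 598 to 2740, counting error only), and replicate 2 held the highest TP63 of all 15 libraries. The line made with guides 1 and 2 had an intermediate level, 11.0, 9.97 and 7.83 CPM, with little spread between its libraries. Genotype means were 50.9 ± 14.9 CPM (SD, n = 3) for the empty vector, 25.3 ± 43.7 for guide 2, 19.4 ± 18.3 for parental cells, 9.60 ± 1.61 for guides 1 and 2, and 0.166 ± 0.0321 for guide 1. No neighbours in that order passed the test.

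KRT5, the main type II keratin of basal cells, was abundant everywhere. It stood at 2997, 862 and 1536 CPM in the parental libraries, at 1859, 1972 and 2368 CPM with the empty vector, and at 870, 1001 and 625 CPM with guide 1. With guide 2 it was at 709, 4997 and 793 CPM, and with guides 1 and 2 at 1125, 1025 and 985 CPM. The highest library was guide 2 replicate 2 and the lowest guide 1 replicate 3. Parental replicate 2 lay inside the range of the guide 1 libraries, so KRT5 did not separate edited from unedited cells.

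KRT14, the type I partner of KRT5, spanned a far wider range than KRT5. It was at 545, 37.8 and 265 CPM in the parental libraries and at 118, 129 and 309 CPM with the empty vector. It was at 9.90, 9.32 and 6.44 CPM with guide 1 and at 34.6, 31.0 and 26.0 CPM with guides 1 and 2. With guide 2 it was at 18.9 and 17.4 CPM in replicates 1 and 3 and at 1147 CPM in replicate 2. The highest library held 178 times the KRT14 of the lowest, and 8 of the 9 edited libraries were below all 6 unedited ones, the exception being guide 2 replicate 2.

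KRT17, a type I keratin induced in stressed and wounded epithelium, was again lowest in guide 1 and highest in guide 2 replicate 2. It stood at 681, 92.4 and 357 CPM in parental cells, at 733, 816 and 1327 CPM with the empty vector, and at 35.9, 37.6 and 24.1 CPM with guide 1. It was at 50.3, 1622 and 46.1 CPM with guide 2 and at 181, 159 and 139 CPM with guides 1 and 2. Parental replicate 2 lay below the line made with guides 1 and 2, where its KRT14 lay above, and above the guide 1 libraries.

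KRT6A, a type II keratin of activated epithelium, had a narrower range than KRT17. It was at 1160, 378 and 1021 CPM in parental cells, at 1127, 1136 and 1786 CPM with the empty vector, and at 309, 324 and 372 CPM with guide 1. It was at 344, 2156 and 355 CPM with guide 2 and at 979, 917 and 902 CPM with guides 1 and 2. Here the line made with guides 1 and 2 sat close to parental replicates 1 and 3, whereas its KRT14 sat far below theirs.

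KRT15, a type I keratin of basal cells in several epithelia, was present at a low level. It was at 2.23, 1.69 and 4.70 CPM in parental cells and at 6.13, 7.73 and 12.5 CPM with the empty vector. It was at 2.35, 2.04 and 1.90 CPM with guide 1, at 1.61, 4.08 and 1.62 CPM with guide 2, and at 3.92, 2.87 and 2.22 CPM with guides 1 and 2. Unlike the other basal keratins, it was higher in each empty vector library than in each of the other 12, and guide 2 replicate 2 did not exceed them.

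The luminal keratins varied much less. KRT7, a type II keratin of simple epithelia, was at 2235, 2356 and 2292 CPM in parental cells, at 2518, 2493 and 2413 CPM with the empty vector, and at 2754, 2730 and 2425 CPM with guide 1. It was at 2866, 1905 and 2615 CPM with guide 2 and at 2582, 2545 and 2722 CPM with guides 1 and 2. The lowest value was in guide 2 replicate 2, the library with the highest KRT5, and the highest was in guide 2 replicate 1, so this genotype held both ends of the range.

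KRT8, the type II keratin of luminal cells, was at 105, 176 and 147 CPM in parental cells, at 159, 169 and 137 CPM with the empty vector, and at 130, 142 and 119 CPM with guide 1. It was at 159, 70.2 and 167 CPM with guide 2 and at 172, 162 and 171 CPM with guides 1 and 2. Guide 2 replicate 2 was again the lowest library, and parental replicate 2 the highest, so the pair that stood apart in TP63 had the opposite order in KRT8.

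KRT18, the type I partner of KRT8, was at 168, 131 and 155 CPM in parental cells, at 185, 185 and 204 CPM with the empty vector, and at 134, 135 and 135 CPM with guide 1. It was at 160, 194 and 149 CPM with guide 2 and at 177, 178 and 186 CPM with guides 1 and 2. The 3 guide 1 libraries differed by a factor of 1.01, and all lay below the 3 empty vector libraries and above parental replicate 2.

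KRT19, the smallest type I keratin and a common luminal marker, was nearly absent. Its counts ran from 0 to 15 with a median of 2, and 12 of the 15 libraries had 3 counts or fewer. The highest library was parental replicate 2, at 0.235 CPM from 15 counts. KRT19 did not pass the filter on low counts and was not tested, so the tests below cover 9 of the 10 genes.

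**Figure D1:**
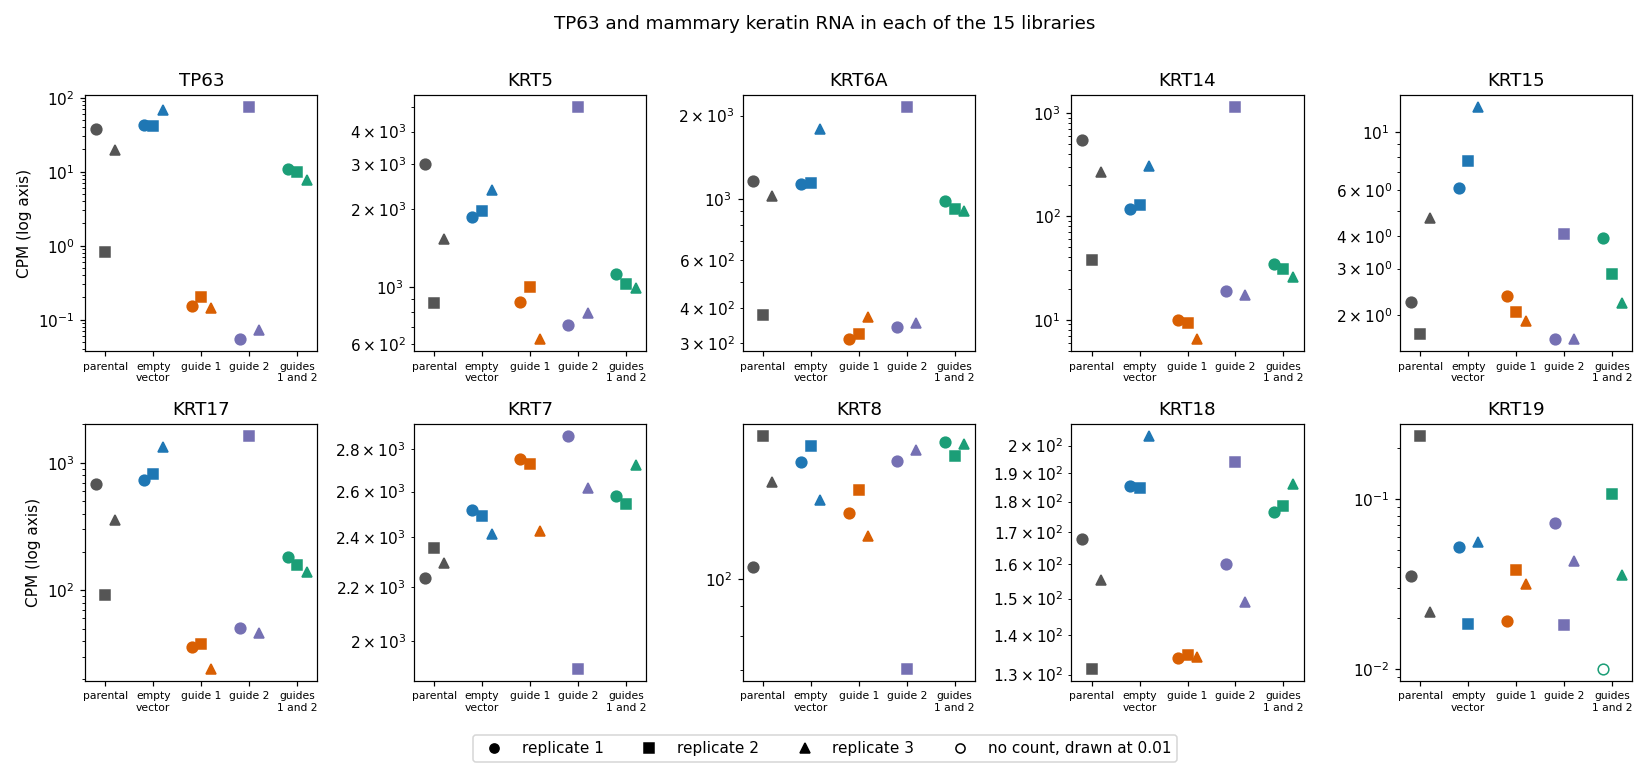
CPM of TP63 and the 9 keratins (vertical log axes with a range of their own in each panel) in the 5 genotypes, 1 point a library with its shape giving the replicate number. In the guide 2 column, replicate 2 lies far above replicates 1 and 3 for TP63, KRT5, KRT6A, KRT14 and KRT17 and below them for KRT7 and KRT8.

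On log2 CPM, the spread within genotypes (SD pooled over the 5) was 2.81 for TP63, 1.82 for KRT14, 1.49 for KRT17, 0.834 for KRT5, 0.806 for KRT6A and 0.568 for KRT15, against a median of 0.249 over all 17457 tested genes. It was 0.369 for KRT8, 0.149 for KRT7 and 0.126 for KRT18. Genotype accounted for 59.8% of the variance of TP63, 55.1% of that of KRT14 and 31.8% of that of KRT5, and for 75.7% of that of KRT18. KRT18 thus had a small range, of which most lay between genotypes, and TP63 a large range, of which much lay within them. Leaving out guide 2 replicate 2, the spread within genotypes was 1.4 for TP63, 1.02 for KRT14, 0.751 for KRT17, 0.467 for KRT5 and 0.0978 for KRT18, against a median of 0.186. Genotype then accounted for 90% of the variance of TP63, 82.5% for KRT14, 68.5% for KRT5 and 85.3% for KRT18, against a median of 54.1% over all genes and of 40% with all libraries.

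Keratin genes were compared with each other on CPM per kilobase of exon. The length was the union of all annotated exons of a gene, 6881 bases for KRT8 and 3218 for KRT18, and not that of 1 mRNA. Levels, shares and ratios between genes depend on these lengths. The fold range of 1 gene or 1 ratio over the libraries does not. KRT7 was the leading luminal keratin, between 465 and 700 CPM per kilobase, with KRT18 between 40.8 and 63.3 and KRT8 between 10.2 and 25.6. Among the basal keratins, KRT5 ranged from 146 to 1164, KRT6A from 106 to 736, KRT17 from 7.70 to 518, KRT14 from 2.82 to 503 and KRT15 from 0.227 to 1.77. The basal sum varied 10.3-fold over the 15 libraries and the luminal sum 1.44-fold. The basal share of the keratin total was 71.7%, 36.9% and 59.8% in parental cells, 61.4%, 62.8% and 71.9% with the empty vector, and 30.7%, 33.0% and 30.3% with guide 1. It was 28.4%, 84.5% and 31.7% with guide 2 and 48.5%, 46.8% and 44.3% with guides 1 and 2. The guide 1 shares lay below and the empty vector shares above those of the line made with both guides.

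Chains that pair with each other did not keep a fixed ratio. KRT5 exceeded KRT14 in every library, but by 2.32-fold in guide 2 replicate 2 and by up to 57.1-fold in guide 1. The mean ratio of KRT5 to KRT14 was 6.86 ± 2.42 (SD, n = 3) with the empty vector, 51.8 ± 5.18 with guide 1 and 18.3 ± 1.55 with guides 1 and 2. KRT8 to KRT18 stayed between 0.169 and 0.627, with the lowest value in guide 2 replicate 2. That these values lie below 1 depends on the exon lengths used: before division by length, parental replicate 2 had 176 CPM of KRT8 and 131 of KRT18. KRT14 to KRT18, a basal to luminal ratio, ran from 0.0675 in guide 1 to 8.34 in guide 2 replicate 2.

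**Figure D2:**
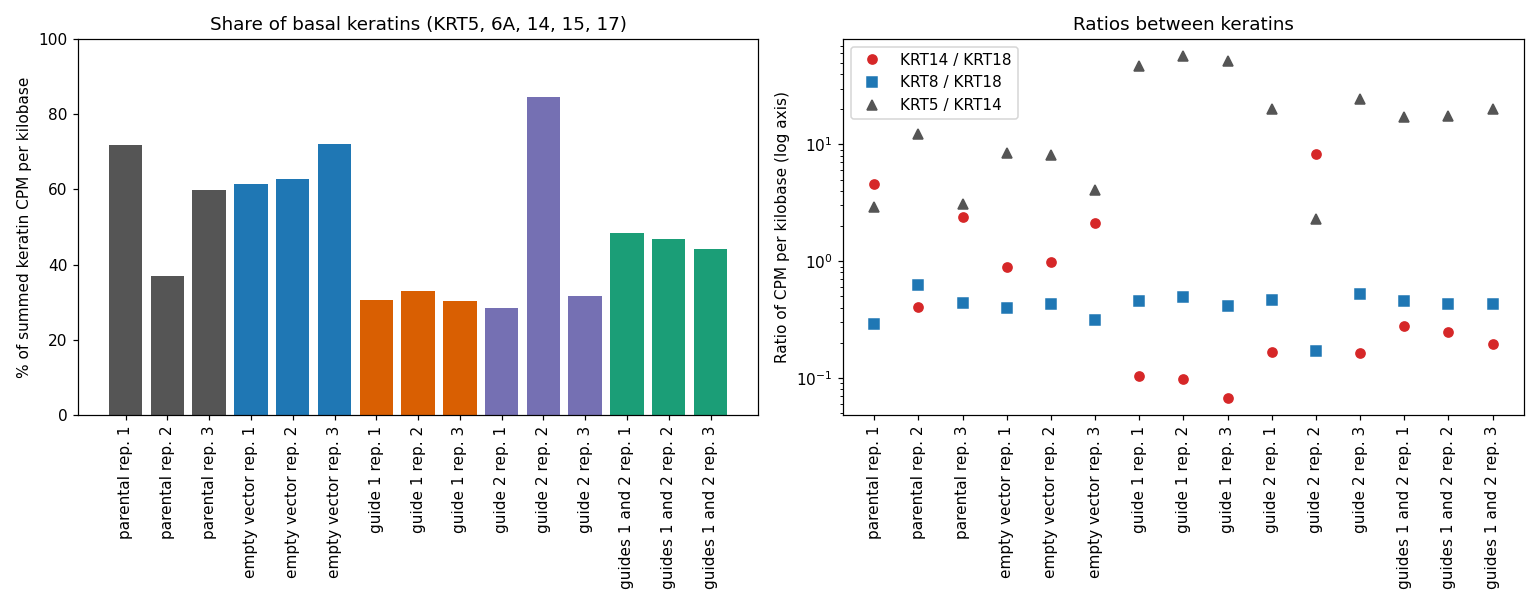
Left, the share of the summed keratin CPM per kilobase taken by the 5 basal keratins (percent, bars from 0) in each library. Right, ratios of KRT14 to KRT18, KRT8 to KRT18 and KRT5 to KRT14 (log axis): guide 1 has the highest KRT5 to KRT14 ratios, and guide 2 replicate 2 has the highest basal share at 84.5%.

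Markers of other cell types were summed in each library. CD3E, which marks T lymphocytes, was at 0 in all 15 libraries, and the leukocyte marker PTPRC, the fibroblast marker COL3A1 and the endothelial marker CDH5 had 3 counts or fewer in every one. Other genes of those lists were detected: COL1A1 at 2.88 to 20.0 CPM, PDGFRB at 0.471 to 3.62, PECAM1 at 0.586 to 1.99 and LUM at 0.0783 to 1.54 CPM, and CD68 was above 3 counts in 4 libraries. The summed fibroblast list ran from 5.24 to 21.0 CPM and was highest with the empty vector (14.5 to 21.0), and the endothelial list ran from 0.665 to 2.08 CPM in all groups. The mesenchymal list (VIM, CDH2, FN1, ZEB1, ZEB2 and TWIST1) was high throughout. Most of its sum came from FN1, at 2818 to 18540 CPM. VIM ran from 866 to 2289 CPM, and CDH2, ZEB1, ZEB2 and TWIST1 were each at most 98.0 CPM. The summed level of the list was 3745 CPM in guide 2 replicate 2, the lowest library, and 13930 and 15630 CPM in guide 2 replicates 1 and 3. It ran from 14880 to 20680 CPM with guide 1, 13350 to 15160 with the empty vector, 11280 to 11580 with guides 1 and 2, and 8337 to 13780 in parental cells, where replicate 2 was the highest. Means of VIM alone were 1984 CPM with guide 1, 1917 in parental cells and 1795 with guides 1 and 2. They were 1660 CPM with guide 2 and 1573 with the empty vector, so the order of VIM differed from that of the sum. CDH1, which encodes the epithelial adhesion protein E-cadherin, ran from 0.0192 to 127 CPM and had 3 counts or fewer in 3 libraries. Of the other luminal markers, EPCAM ran from 1.85 to 103 CPM, GATA3 from 15.4 to 35.3 and ESR1 from 0.235 to 0.791. In bulk RNA, fewer cells of a type and less RNA per cell cannot be told apart, and the part of these markers in the results below was not tested.

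The following differences are log2 fold changes. The first comparison asked how the guide 1 line differed from the empty vector control. Of the 9 tested genes, 3 fell and none rose. KRT17 fell by 4.89 on the log2 scale (SE 1.22, edgeR quasi-likelihood test with Benjamini-Hochberg adjustment, adjusted p = 0.0346). KRT15 fell by 2.08 (SE 0.444, adjusted p = 0.0187) and KRT18 fell by 0.52 (SE 0.103, adjusted p = 0.0140) in the same edgeR test. Over all tested genes, 5.88% were called in this comparison, 4.57% as lower. TP63 had the largest difference of the 9 at -8.23 (SE 2.26, 95% interval -13.12 to -3.34), and its edgeR adjusted p of 0.0507 missed the threshold of 0.05. The remaining basal keratins, KRT5, KRT6A and KRT14, had differences between -4.45 and -1.32 that were not called, and KRT7 and KRT8 were at 0.08 and -0.26. The 3 guide 1 libraries lay below the 3 empty vector libraries for 7 of the 9 genes, TP63, the 5 basal keratins and KRT18, against 36.2% of all tested genes without overlap and 18.1% without overlap and lower. The calls depended on single libraries: with empty vector replicate 3, guide 1 replicate 1 or guide 1 replicate 2 left out, 0 of the 9 were called (1.39%, 1.58% and 1.2% of all genes), and with guide 1 replicate 3 left out KRT18 alone was (5.46%). KRT17 was also not called, leaving KRT15 and KRT18, without empty vector replicate 1 or 2, parental replicate 3 or any 1 library of guides 1 and 2 (3.39% to 4.36% of all genes). With guide 2 replicate 1 or replicate 3 left out, 6 were called (6.26% and 6.44%). Without guide 2 replicate 2, which is no part of this contrast but enters the shared estimate of spread, 7 were called, all lower (18.1% of all genes), with TP63 at -8.24 and an adjusted p of 0.000334.

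Guide 2 against the empty vector called only KRT15, which fell by 1.88 (SE 0.441, edgeR adjusted p = 0.0328), where 3.94% of all tested genes were called and 2.73% as lower. TP63 was at -1.04 (SE 1.53, 95% interval -4.36 to 2.27, edgeR adjusted p = 0.776) and KRT14 at 1.05, the mean of guide 2 holding the 1147 CPM of replicate 2 beside the 18.9 and 17.4 CPM of the others. KRT5, KRT6A and KRT17 lay between -0.78 and 0.04, and the luminal keratins between -0.24 and -0.02. KRT15 was also the only gene without overlap between the libraries (23.1% of all genes, 10.9% lower). When guide 2 replicate 2 was left out, 7 of the 9 were called lower, TP63, the 5 basal keratins and KRT18, where 14.5% of all genes were called. TP63 was then at -9.62 (edgeR adjusted p = 0.00130), KRT17 at -4.35, KRT14 at -3.39, KRT15 at -2.48, KRT6A at -1.98, KRT5 at -1.49 and KRT18 at -0.34. The call on KRT15 was lost, leaving 0, when guide 2 replicate 1 or 3, empty vector replicate 2 or 3, or replicate 2 of guides 1 and 2 was left out (0.948% to 2.74% of all genes).

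In the line made with guides 1 and 2, none of the 9 genes was called against the empty vector by the edgeR test, where 0.962% of all genes were. An unadjusted p was under 0.05 for 2 (14% of all genes), and DESeq2 called 1 (4.33%). TP63 was at -2.43 (SE 1.61, 95% interval -5.91 to 1.04, edgeR adjusted p = 0.569). The basal keratins lay between -2.63 (KRT14) and -0.56 (KRT6A), and the luminal keratins between -0.11 and 0.10. The libraries did not overlap for 7 genes, with TP63 and the 5 basal keratins lower and KRT7 higher, against 37.7% of all genes, 17.2% lower and 20.5% higher. With guide 2 replicate 2 removed from the fit, KRT14, KRT15 and KRT17 were called lower (6.7% of all genes), at -2.64, -1.59 and -2.62, and TP63 at -2.44 was not (edgeR adjusted p = 0.0651).

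The 2 unedited controls were also compared with each other, and none of the 9 genes was called by the edgeR test, where 4.37% of all genes were. An unadjusted p was under 0.05 for 2 (19.8% of all genes), and DESeq2 called 2 (9.39%). TP63 was at -1.42 in parental cells relative to the empty vector (SE 1.55, 95% interval -4.77 to 1.92, edgeR adjusted p = 0.671). KRT15 was nearest to the threshold at -1.66 (edgeR adjusted p = 0.0506), followed by KRT18 at -0.37 (edgeR adjusted p = 0.0609). Both were called lower without guide 2 replicate 2 (13.9% of all genes), with KRT15 at -1.67 and KRT18 at -0.38. The parental libraries lay below the empty vector libraries for 5 genes, TP63, KRT15, KRT17, KRT7 and KRT18, against 32.1% of all genes without overlap and 14.1% without overlap and lower. With parental replicate 3 left out, KRT15 alone was called (1.54% of all genes).

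**Figure D3:**
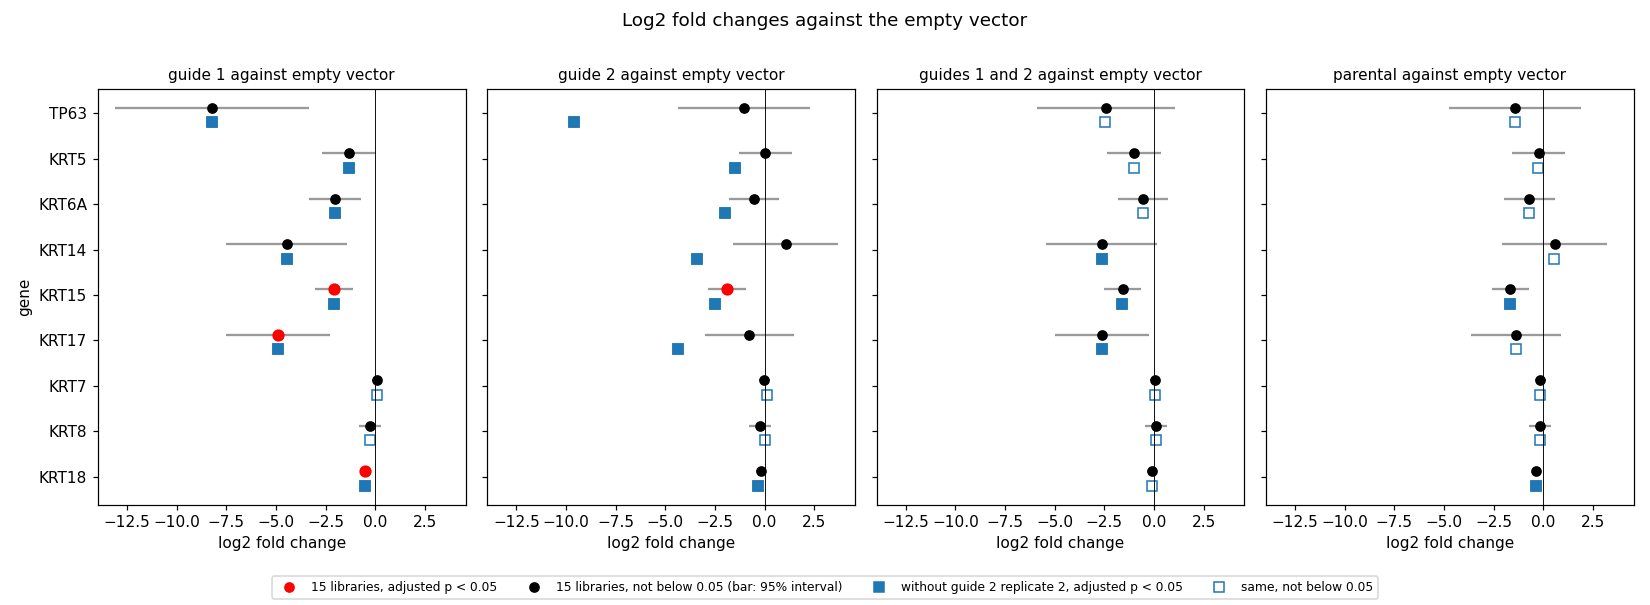
Log2 fold changes of TP63 and the 8 tested keratins against the empty vector, in 4 panels: circles are the fit to all 15 libraries with 95% intervals as bars, red where the adjusted p is under 0.05, and squares are the fit without guide 2 replicate 2, filled where the adjusted p is under 0.05. In the guide 2 panel TP63 moves from -1.04 to -9.62 between the fits, KRT7 and KRT8 lie within 0.26 of 0 in the 15-library fit, and KRT18 is at -0.52 in the guide 1 panel.

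Taking the 9 edited libraries against the 6 unedited ones, none of the 9 genes was called by the edgeR test, where 1.51% of all genes were. An unadjusted p was under 0.05 for 4 (15.8% of all genes), and DESeq2 called 3, TP63, KRT15 and KRT17 (5.33%). TP63 was at -3.19 (SE 1.09, 95% interval -5.54 to -0.84, edgeR adjusted p = 0.166). KRT14 was at -2.30, KRT17 at -2.07 and KRT15 at -1.02, and the luminal keratins lay between -0.09 and 0.11. All 9 genes overlapped between edited and unedited libraries, while 0.281% of all genes did not. The fit without guide 2 replicate 2 called 7 (18% of all genes): TP63 at -6.05 (edgeR adjusted p = 0.000155), KRT14 at -3.78, KRT17 at -3.26, KRT15 at -1.22, KRT6A at -1.17 and KRT5 at -1.16 were lower, and KRT7 at 0.15 was higher.

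Against parental cells, no edited line had a called gene among the 9 by the edgeR test, with 0.149% of all genes called for guide 1, 0.0516% for guide 2 and 0.195% for guides 1 and 2. The genes with an unadjusted p under 0.05 numbered 4, 0 and 2 (19.9%, 7.37% and 9.98% of all genes), and DESeq2 called 3 for guide 1 (4.09%). TP63 was at -6.81 for guide 1 (95% interval -11.53 to -2.09, edgeR adjusted p = 0.182), at 0.38 for guide 2 (-2.91 to 3.68, adjusted p = 0.991) and at -1.01 for guides 1 and 2 (-4.36 to 2.34, adjusted p = 0.881). The guide 1 libraries lay below all parental libraries for TP63, KRT6A, KRT14 and KRT17 and above them for KRT7 (24% of all genes without overlap, 12.8% lower and 11.2% higher). For guides 1 and 2, KRT14 was below, and KRT7 and KRT18 above, without overlap (23.1%, 11.5% lower and 11.6% higher), and for guide 2 there was no such gene (9.38%). The guide 1 contrast called 5 genes lower without guide 2 replicate 2 (14.5% of all genes), TP63 at -6.80, KRT14 at -5.02, KRT17 at -3.51, KRT6A at -1.33 and KRT5 at -1.09. The guide 2 contrast then called 4 lower (5.96%), TP63 at -8.18, KRT14 at -3.95, KRT17 at -2.95 and KRT6A at -1.27, and that for guides 1 and 2 called KRT14 alone, at -3.20 (2.62%). These contrasts share their control libraries with each other, as do those against the empty vector.

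The edited lines were compared in pairs, 30 gene-by-pair comparisons in all with the untested KRT19 counted, and none was called by the edgeR test, where 0.155% of all gene-by-pair tests were. DESeq2 called 5 (1.44%). An unadjusted p was under 0.05 for 6 genes in guide 1 against guide 2 (15.2% of all genes), 3 in guides 1 and 2 against guide 1 (13%), and 1 in guides 1 and 2 against guide 2 (5.8%). TP63 stood 5.80 above guide 1 in the line made with both guides (SE 2.14, 95% interval 1.17 to 10.43, edgeR adjusted p = 0.304). The libraries of this pair did not overlap for TP63, KRT6A, KRT14, KRT17, KRT8 and KRT18, all higher with both guides, against 28.8% of all genes without overlap and 15.3% without overlap and higher. In the fit without guide 2 replicate 2, TP63 (5.79), KRT17 (2.28), KRT6A (1.47) and KRT18 (0.41) were called in that pair (4.55% of all genes). Guide 1 against guide 2 gave -7.19 for TP63 (95% interval -11.95 to -2.43, edgeR adjusted p = 0.317) with all libraries and 1.38 without guide 2 replicate 2, where 0 of the 9 genes were called (0.162% of all genes). In guide 1, KRT14, KRT17 and KRT18 were below guide 2 without overlap (12.7% of all genes, 5.91% lower). For guides 1 and 2 against guide 2, TP63 was at -1.39 (95% interval -4.76 to 1.98, edgeR adjusted p = 0.965), and no gene of the 9 was without overlap (10.4% of all genes). There TP63 was at 7.17 without guide 2 replicate 2 (edgeR adjusted p = 0.0275), the 1 gene called (1.83% of all genes).

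A test of any difference among the 5 genotypes called KRT15 (edgeR adjusted p = 0.0354) and KRT18 (edgeR adjusted p = 0.0451), where 4.3% of all genes were called. KRT14 (adjusted p = 0.121), KRT17 (0.122) and TP63 (0.196) were not called. Without guide 2 replicate 2, TP63, the 5 basal keratins and KRT18 were called (23.7% of all genes). Both calls were lost with any 1 empty vector library, guide 1 replicate 1 or 2, or any 1 library of guides 1 and 2 left out (1.1% to 2.07% of all genes). With parental replicate 1 or 3, guide 1 replicate 3 or guide 2 replicate 1 left out, 1 call was left (2.3% to 9.94%).

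The 2 libraries that stood apart did so in KRT5, KRT6A, KRT14 and KRT17 and in the same direction as in TP63. In KRT15, guide 2 replicate 2 was again the highest of its genotype. Parental replicate 2 was the lowest of its own at 1.69 CPM, but close to replicate 1 at 2.23 CPM, with replicate 3 at 4.70 CPM. Guide 2 replicate 2 exceeded the mean of the other 2 guide 2 libraries 63.3-fold in KRT14, 33.7-fold in KRT17, 6.66-fold in KRT5, 6.17-fold in KRT6A and 2.53-fold in KRT15, and by 1.25-fold in KRT18, while KRT7 stood at 0.695 and KRT8 at 0.431 of that mean. Parental replicate 2 lay 35.2-fold below the mean of the other 2 parental libraries in TP63, 10.7-fold in KRT14, 5.62-fold in KRT17, 2.89-fold in KRT6A, 2.63-fold in KRT5 and 2.05-fold in KRT15. The order of the 5 basal keratins by the size of this gap was nearly that in the guide 2 line, with KRT5 and KRT6A exchanged.

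**Figure D4:**
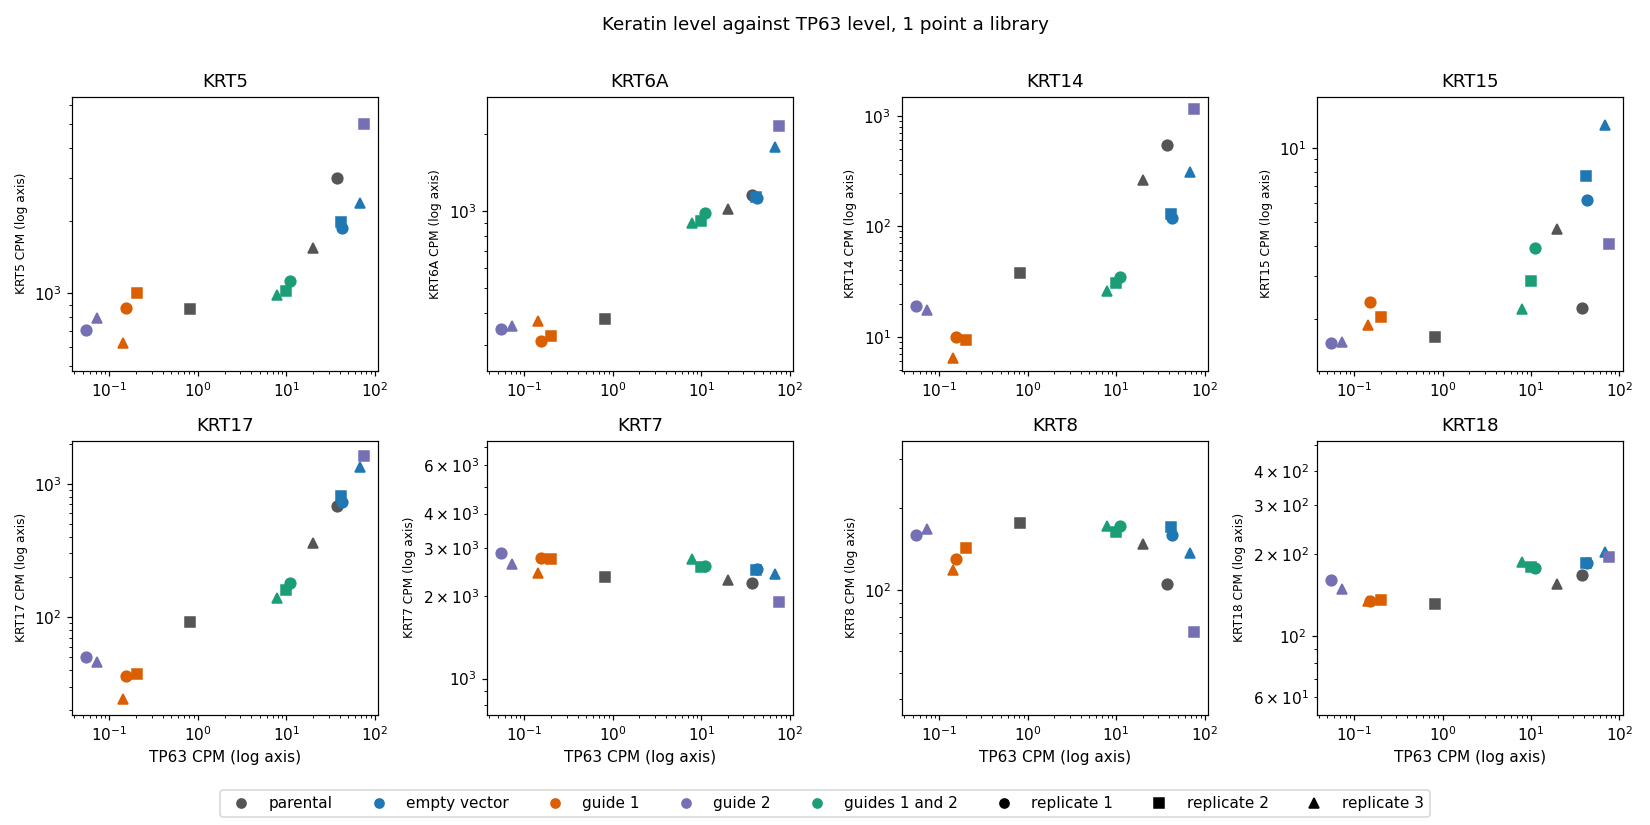
CPM of each tested keratin (vertical log axis) against CPM of TP63 (horizontal log axis), 1 point a library, with colour for genotype and shape for replicate number. KRT17 and KRT6A climb with TP63 once TP63 is above about the level of parental replicate 2 (0.815 CPM), and KRT7, KRT8 and KRT18 stay within narrow bands.

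The genes whose log2 CPM over the 15 libraries was most like that of TP63, among 11616 genes with an average log2 CPM of at least 1, were ESRP1, an epithelial splicing factor (Pearson r = 0.994), DSG3, a desmosomal cadherin (0.992), LAD1, an anchoring filament protein (0.991), FAT2, an atypical cadherin (0.989), and PPP1R14C, a phosphatase inhibitor (0.989). Since the libraries form groups of high and low TP63, these values describe a shared division of libraries and carry no test. On the same scale r with TP63 was 0.968 for KRT6A, 0.9495 for KRT17, 0.853 for KRT14, 0.839 for KRT5, 0.815 for KRT18 and 0.777 for KRT15, and -0.60 for KRT7 and -0.24 for KRT8. Without guide 2 replicate 2, r with TP63 was 0.974 for KRT6A, 0.948 for KRT17, 0.863 for KRT5, 0.849 for KRT14, 0.794 for KRT18 and 0.786 for KRT15, and -0.56 for KRT7 and 0.0158 for KRT8; it was 0.988 to 0.994 for the 5 genes. The genes most like KRT14 were KRT16, a type I keratin (r = 0.976), SH3RF2 (0.974), CDK6, a cell cycle kinase (0.970), PRSS12 (0.970) and TET3, a DNA demethylation enzyme (0.968). Those most like KRT18 were MST1R, a receptor tyrosine kinase (0.939), LIPG, a lipase (0.935), SFN, an epithelial 14-3-3 protein (0.927), C1orf198 (0.926) and ARAP2 (0.926). KRT16 shares 88.6% of its aligned coding sequence with KRT14, so part of its count could come from shared reads, which was not tested.

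A list of 20 genes linked to p63 in basal epithelium, all of which were tested, gave 12 lower and 0 higher genes in guide 1 against the empty vector, with a median difference of -1.85 against 0.02 over all genes (5.88% of all genes called, 4.57% as lower). The 12 included laminin chains (LAMA3, LAMB3), hemidesmosome proteins (COL17A1, DST), cadherins (FAT2, DSC3, CDH3), and PERP, SFN, S100A2 and BNC1. FAT2 fell by 10.87 (SE 2.93, edgeR adjusted p = 0.0474), COL17A1 fell by 7.58 (SE 2.00, adjusted p = 0.0446) and DSC3 fell by 6.27 (SE 1.72, adjusted p = 0.0499). In guide 2 against the empty vector 2 were lower, LAMB3 at -0.89 (edgeR adjusted p = 0.0202) and DST at -0.68 (edgeR adjusted p = 0.0214), with a list median of -0.77 (3.94% of all genes called). In guides 1 and 2, DST alone was called, at -0.93 (edgeR adjusted p = 0.0111), with a list median of -0.95 (0.962% of all genes called). In parental cells against the empty vector, LAMB3 at -1.20 (edgeR adjusted p = 0.00600) and DST at -0.54 (edgeR adjusted p = 0.0495) were lower too, with a list median of -0.85 (4.37% of all genes called). In edited against unedited libraries DST alone was lower, at -0.47 (edgeR adjusted p = 0.0269), where 1.51% of all genes were called. With all libraries, none of the 20 was called against parental cells or between edited lines. Without guide 2 replicate 2, 18 were lower in guide 1 (18.1% of all genes called), 17 in guide 2 (14.5%), 10 in guides 1 and 2 (6.7%) and 8 in parental cells (13.9%), each against the empty vector, with 0 higher. In the same fit LAMB3 and DST were at -0.84 and -0.80 in guide 2, and DST was at -0.51 in edited against unedited libraries, where 17 were lower (18%). Against parental cells it called 15 lower in guide 1 (14.5%), 9 in guide 2 (5.96%) and 0 in guides 1 and 2 (2.62%). The line made with both guides had 11 higher than guide 1 (4.55%) and 7 higher than guide 2 (1.83%). Guide 1 against guide 2 had 0 calls (0.162%). SNAI2, a p63-linked factor of basal cells, stood between 126 and 161 CPM in all libraries. Per library, FAT2 was at 99.7, 2.26 and 47.8 CPM in parental cells and at 71.4, 93.5 and 131 CPM with the empty vector. It was at 193 CPM in guide 2 replicate 2, at no more than 0.0949 CPM in the other guide 2 and the guide 1 libraries, and at 19.9, 18.1 and 12.9 CPM with guides 1 and 2. Guide 2 replicate 2 and parental replicate 2 thus stood apart in FAT2 as they did in TP63. FAT2 is among the 5 genes most like TP63 above, so this likeness adds no separate result. The spread within guide 2 differed over the list: COL17A1 ran from 1.39 to 553 CPM, LAMB3 from 671.5 to 799.8 and DST from 345 to 488.

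The genes that link keratins to desmosomes and other junctions (10, all tested) gave 4 lower genes in guide 1 against the empty vector, and 0 calls elsewhere with all libraries. DSG3 fell by 7.79 (SE 1.94, edgeR adjusted p = 0.0352), EPPK1, a keratin-binding cytolinker, fell by 3.98 (SE 0.889, adjusted p = 0.0222), and DSP, which anchors keratin to desmosomes, fell by 2.47 (SE 0.665, adjusted p = 0.0472), and JUP was the fourth. The list median was -1.12, and 5.88% of all genes were called. In the fit without guide 2 replicate 2, 6 were lower in guide 1, 6 in guide 2, 4 in guides 1 and 2 and 3 in parental cells against the empty vector (18.1%, 14.5%, 6.7% and 13.9% of all genes). Edited against unedited libraries then had 7 lower (18%). Against parental cells, 4 were lower in guide 1 (14.5%), 3 in guide 2 (5.96%) and 0 in guides 1 and 2 (2.62%). The line made with both guides had 3 higher than guide 1 (4.55%) and 2 higher than guide 2 (1.83%).

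Of 18 luminal epithelial genes 13 were tested, and 3 were lower and 1 higher in guide 1 against the empty vector (5.88% of all genes called). In guide 1 against the empty vector, CDH1 fell by 9.27 (SE 2.45, edgeR adjusted p = 0.0446), FOXA1, a pioneer factor of luminal cells, fell by 1.53 (SE 0.363, adjusted p = 0.0290), and XBP1, a secretory pathway factor, fell by 0.31 (SE 0.0740, adjusted p = 0.0309). CD24, a luminal surface protein, fell by 2.92 in guide 2 against the empty vector (SE 0.514, edgeR adjusted p = 0.00943) and by 1.75 in edited against unedited libraries (SE 0.305, adjusted p = 0.0172). In parental cells against the empty vector, MUC1, an apical mucin, fell by 0.59 (edgeR adjusted p = 0.0443). With all libraries, no gene of the list was called in the remaining comparisons, and its median lay between -0.55 and 0.36 in the 11 comparisons. The fit without guide 2 replicate 2 gave 8 genes of the list as lower and 2 as higher in guide 1 against the empty vector (18.1% of all genes), and CD24 was at -3.01 in guide 2 and at -1.78 in edited against unedited libraries. Against parental cells that fit gave 5 lower and 1 higher in guide 1 (14.5%). It gave 3 lower and 1 higher in guide 2 (5.96%) and 0 in guides 1 and 2 (2.62%). KRT7 and KRT8 were called in none of these comparisons in the fit to all 15 libraries.

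Of 8 myoepithelial contractile genes 5 were tested and 0 were called in any comparison with all libraries. With guide 2 replicate 2 left out, ACTA2 and TAGLN were called in guide 1 against the empty vector, 1 in each direction (18.1% of all genes called). Both were also called in edited against unedited libraries, again 1 in each direction (18%). ACTA2 was called lower in parental cells than with the empty vector (13.9%). Against parental cells it was called higher in guide 1 (14.5%), guide 2 (5.96%) and guides 1 and 2 (2.62%). Among 22 further keratins, 12 were tested, and KRT75 alone was called, lower than the empty vector in guide 1 (-4.32, edgeR adjusted p = 0.0162), guide 2 (-3.99, edgeR adjusted p = 0.0242) and parental cells (-4.40, edgeR adjusted p = 0.0206), at levels of at most 0.933 CPM. With guide 2 replicate 2 left out, KRT75 was at -4.33, -4.05 and -4.42 in these comparisons and was called in each. It was then also called lower in guides 1 and 2 against the empty vector, at -3.00 (edgeR adjusted p = 0.0337, 6.7% of all genes called). KRT16 and KRT6B, relatives of KRT14 and KRT6A, were at -2.97 and -6.52 in guide 1 against the empty vector and were not called (edgeR adjusted p = 0.0603 and 0.0761); without guide 2 replicate 2 they were at -2.97 and -6.53 and were called. In guide 2 replicate 2 they stood at 43.6 and 15.8 CPM, against at most 4.58 and 0.0434 CPM in the other 2 guide 2 libraries.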

How the data were processed

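Poly(A) RNA from 15 MCF-10A libraries was purified on RNeasy columns and made into libraries with a KAPA mRNA HyperPrep kit, per the labels' protocols. The authors deposited whole-number read counts per gene, and CPM, which equal the deposited counts divided by the library total. The submitters' processing notes name GRCh38, STAR 2.7.8a and Trim Galore 0.6.0; the counting program, annotation and use of strand are not given in the sources used here.

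Counts were tested with edgeR 4.0.16 in R 4.3.3 (filterByExpr by genotype, 17457 of 60721 genes; TMM; 1 group-means model over 15 libraries, 10 residual degrees of freedom; quasi-likelihood tests, two-sided; Benjamini-Hochberg over all tested genes; called at an adjusted p under 0.05). Intervals are 95%. Alternatives were RLE scaling, no filter, a replicate block, DESeq2 1.42.0, voom with sample quality weights in limma 3.58.1, only the groups compared, and each library left out in turn. Libraries of 1 genotype differed beyond sampling noise in 24.6% to 76.8% of genes, so none is a copy. Python 3.11.15 and pandas 2.3.3 made levels; likeness was computed on log2 CPM (prior count 2).

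The members and lists were chosen with earlier results of these data known. Named are TP63 and each called member per comparison, at most 3 called genes per list (average log2 CPM at least 1, largest change), and the 5 genes most like TP63, KRT14 and KRT18. Other list genes named (SNAI2, KRT75, KRT16, KRT6B, FAT2 by library, the remaining called list genes) were chosen after their values were seen. Results for some genes of the lists are not reported here.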

Additional observations from a re-analysis of the deposited data

How the results depend on the processing

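RLE scaling changed no count of called genes by more than 1.5 times. Counts of called genes among the 9 (30 for the pairs) moved as follows. For edited against unedited libraries the count was 0 in the main fit, 1 with no filter on low counts (0.868% of all genes), 3 with DESeq2 (5.33%), 8 with voom and its quality weights (42%), and 0 to 7 with 1 library left out. For guide 1 against the empty vector it was 3, then 6 with no filter (2.76%), 6 with DESeq2 (11.1%), 9 with voom (42.5%), 7 with only the compared groups (15.8%), and 0 to 7 with 1 library left out. For guide 2 against the empty vector it was 1, then 7 with voom (33.2%), 0 with only the compared groups (0.0794%), and 0 to 7 with 1 library left out. For guides 1 and 2 against the empty vector it was 0, then 1 with DESeq2 (4.33%), 5 with voom (26.7%), 6 with only the compared groups (18.7%), and 0 to 3 with 1 library left out. For parental against empty vector it was 0, then 1 with no filter (1.61%), 2 with DESeq2 (9.39%), 5 with voom (36.3%), and 0 to 2 with 1 library left out. Against parental cells it was 0 for each line; DESeq2 gave 3 for guide 1 (4.09%), voom gave 8, 7 and 4 for guide 1, guide 2 and guides 1 and 2 (52.9%, 32.5% and 21.3%), and leaving out 1 library gave 0 to 5, 0 to 4 and 0 to 1. For the pairs it was 0, then 5 with DESeq2 (1.44%), 11 with voom (27.3%), 6 with only the compared groups (2.56%), and 0 to 5 with 1 library left out. For any difference among genotypes it was 2, then 4 with no filter (2.32%), 5 with DESeq2 (15.3%), 9 with voom (70.9%), and 0 to 7 with 1 library left out. The cause was not tested.

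TP63 changed sign in comparisons with guide 2. Guide 2 against parental, 0.38 in the main fit, was -7.51 with voom (adjusted p = 0.0437), -0.18 without parental replicate 2 and -8.18 without guide 2 replicate 2. Guide 1 against guide 2, -7.19, was 1.18 with voom and 1.38 without guide 2 replicate 2. Guides 1 and 2 against guide 2, -1.39, was 6.995 with voom and 7.17 without guide 2 replicate 2. With 1 library left out, these 3 values ran from -8.18 to 1.31, from -7.78 to 1.38 and from -1.97 to 7.17. The cause was not tested.

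In the fit with a replicate block, KRT17 was no longer called in guide 1 against the empty vector, leaving KRT15 and KRT18 (3.25% of all genes). The count for guide 2 against the empty vector was then 0 (2.15%) and that for any difference among genotypes 0 (1.71%). TP63 in guide 2 against parental was -0.53 in that fit. The numbers were not taken as a pairing: deviations of same-numbered libraries from their genotype means had a mean correlation of -0.05 over 30 pairs (-0.749 to 0.279), and 6 of 15 libraries were closest to one with their own number. Leaving a library out leaves 2 in its genotype. TP63 in guide 1 and in guide 2 replicates 1 and 3 rests on 3 to 16 counts, so its size there is imprecise.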

Other observations

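KRT81, a type II keratin of hair, was as abundant as the main keratins of the mammary sets. It stood between 2266 and 3917 CPM in the 15 libraries, with the lowest value in guide 2 replicate 2 and the highest in guides 1 and 2 replicate 2. Against the empty vector its log2 difference was 0.11 in guide 1 (edgeR adjusted p = 0.734), -0.05 in guide 2 (edgeR adjusted p = 0.908), 0.28 in guides 1 and 2 (edgeR adjusted p = 0.495) and -0.03 in parental cells (edgeR adjusted p = 0.947). The libraries of guides 1 and 2 (3366 to 3917 CPM) lay above those of the empty vector (2830 to 3175 CPM), as 37.7% of all genes had no overlap in that comparison. KRT81 was picked out after its values were seen, and its near-identical relatives KRT83 and KRT86 leave the assignment of its reads uncertain.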
